A study of Homo sapiens with 4 samples.

Results

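The miR-424/miR-503 cluster is a group of miRNA genes that lie close together on the X chromosome, and 6 of its mature products are described here as its members. They were miR-424, miR-503, both arms of miR-542 (miR-542-5p and miR-542-3p), miR-450a and miR-450b-5p, chosen by name out of 1212 human miRNAs, with 3 repeat spots each. The arrays also held 2 other arms of the same hairpins, miR-424* and miR-450b-3p. The members' levels were compared across 4 lines made from HepG2, an established human liver cancer line. HepG2-Bcl-2 was transfected with pcDNA-Bcl-2, HepG2-Twist1/Bcl-2 with both pcDNA-Twist1 and pcDNA-Bcl-2, and HepG2-Twist1 with pcDNA-Twist1, while HepG2-vector is the control and its transfection construct is labelled none. The study describes its Twist1 line as a stable one. Whether a line is 1 clone or a pool is not given in the sources used here. Bcl-2 holds back programmed cell death, and Twist1 is a transcription factor that drives epithelial-mesenchymal transition. One RNA sample per line was measured on 2 two-colour arrays. Array 1 held HepG2-Twist1 in Cy5 and HepG2-vector in Cy3, and array 2 held HepG2-Bcl-2 in Cy5 and HepG2-Twist1/Bcl-2 in Cy3.

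A miRNA is cut from a hairpin in a longer transcript. One arm of the hairpin, or both, is loaded into a silencing complex, and bases 2 to 8 of the mature strand, the seed, do most of the pairing with target mRNAs. Hairpins that sit close together on the same strand are often cut from one transcript. miR-424 and miR-503 belong to the extended miR-15/16 group, which is best known for holding back the cell cycle through cyclins such as cyclin D1, and whose founding members miR-15a and miR-16 are also known to lower BCL2. miR-424 is known as well from the maturation of human monocytes.

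All the hairpins lie on the minus strand of chromosome X and span 6527 bases (RefSeq, GRCh38.p14). MIR424 comes first in the direction of transcription, at chrX:134546614-134546711, and MIR503 follows 215 bases later at chrX:134546328-134546398. MIR542 is at chrX:134541341-134541437. miR-450a is made from 2 genes, MIR450A2 at chrX:134540508-134540607 and MIR450A1 at chrX:134540341-134540431, so its probe reads their sum. MIR450B is at chrX:134540185-134540262. MIR503 lies inside MIR503HG, a long non-coding RNA on the same strand at chrX:134543377-134546630, and MIR424 shares 17 bases with it.

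The mature sequences below show how the members differ in their seeds and how close miR-424 is to miRNAs made elsewhere. They are written 5′ to 3′ from RefSeq (GRCh38.p14), with the seed in capitals. The mature strand of miR-424 is at chrX:134546680-134546701 and that of miR-503 at chrX:134546371-134546393. The name miR-424* stands for the other arm of the miR-424 hairpin, at chrX:134546644-134546664.
miR-424: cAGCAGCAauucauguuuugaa
miR-503: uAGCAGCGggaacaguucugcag
miR-450a: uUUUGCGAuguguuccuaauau
miR-450b-5p: uUUUGCAAuauguuccugaaua
miR-542-5p: uCGGGGAUcaucaugucacgaga
miR-424*: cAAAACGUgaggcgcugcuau
miR-15a: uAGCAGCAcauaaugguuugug
miR-15b: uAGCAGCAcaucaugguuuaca
miR-16: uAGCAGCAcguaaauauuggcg
miR-195: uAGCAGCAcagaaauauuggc
miR-497: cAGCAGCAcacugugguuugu
No pair of the members printed here has the same full seed. miR-424 has the seed of miR-15a, miR-15b, miR-16, miR-195 and miR-497, which are made on other chromosomes. Along its length it shares 16 of 22 bases with miR-15b, 15 of 22 with miR-15a, 14 of 21 with miR-497, 12 of 22 with miR-16 and 11 of 21 with miR-195. It also shares 12 of 22 with miR-503, whose seed parts from that of miR-424 after 6 bases. miR-450a and miR-450b-5p share 16 of 22 bases and 5 of the bases from base 2 on before they part.

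Most probes on these arrays were dim. Each line has 40 empty spots, and the median miRNA spot read 50.4 in HepG2-Bcl-2, 148 in HepG2-Twist1/Bcl-2, 40.5 in HepG2-Twist1 and 116 in HepG2-vector, where the median empty spot read 51.9, 159, 39.1 and 111 in the same order of lines. Between 314 and 393 of the 1212 miRNAs reached a normalized intensity of 32, the threshold in the study's methods, in a line. A normalized intensity is the spot intensity after background correction and scaling. Where a value below carries a ±, it is the SD of the 3 repeat spots, a technical spread that says nothing of how cultures differ. A level is the mean of its spots on the log2 scale turned back to intensity, while the SD beside it is that of the spots' linear values. With 1 sample per line no test between lines was possible. A miRNA counts as measured where at least 1 of the 2 lines compared reached 32. It counts as called where its mean log2 ratio, with an offset of 50 added to both intensities, was 1 or more in size (2-fold) and its 3 spots had the same sign. Within an array, ratios and the minimum of 32 were taken after loess alone. Across arrays, and for the counts per line above, they were taken after scaling between the arrays as well. The numbers measured within and across arrays are therefore not on the same scale. A normalized intensity comes from a whole culture, so more cells with a miRNA and more of it per cell cannot be told apart. HepG2-Bcl-2 shares its array with HepG2-Twist1/Bcl-2 but not the dye, shares the dye with HepG2-Twist1 but not the array, and shares neither with HepG2-vector. Line and dye therefore cannot be told apart in the first of these comparisons, line and array in the second, and all of them in the third.

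miR-424 was bright in HepG2-Bcl-2 and at or near the level of the empty spots in the other lines. Its 3 raw spots read 729, 762 and 555 in HepG2-Bcl-2, where the brightest empty spot read 68.1. In HepG2-Twist1/Bcl-2 they read 163, 145 and 140, with empty spots between 104 and 207, so 0 of 3 stood above the brightest empty spot. In HepG2-Twist1 they read 61.9, 57.2 and 53.8 against a brightest empty spot of 58.8, and in HepG2-vector 205, 215 and 148 against 183. The mean of the spots was 13.1 times the median empty spot in HepG2-Bcl-2, 0.939 times in HepG2-Twist1/Bcl-2, 1.47 times in HepG2-Twist1 and 1.72 times in HepG2-vector. The 8 spots around each miR-424 spot read between 43.9 and 461 in HepG2-Bcl-2, below every miR-424 spot there.

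**Figure D1:**
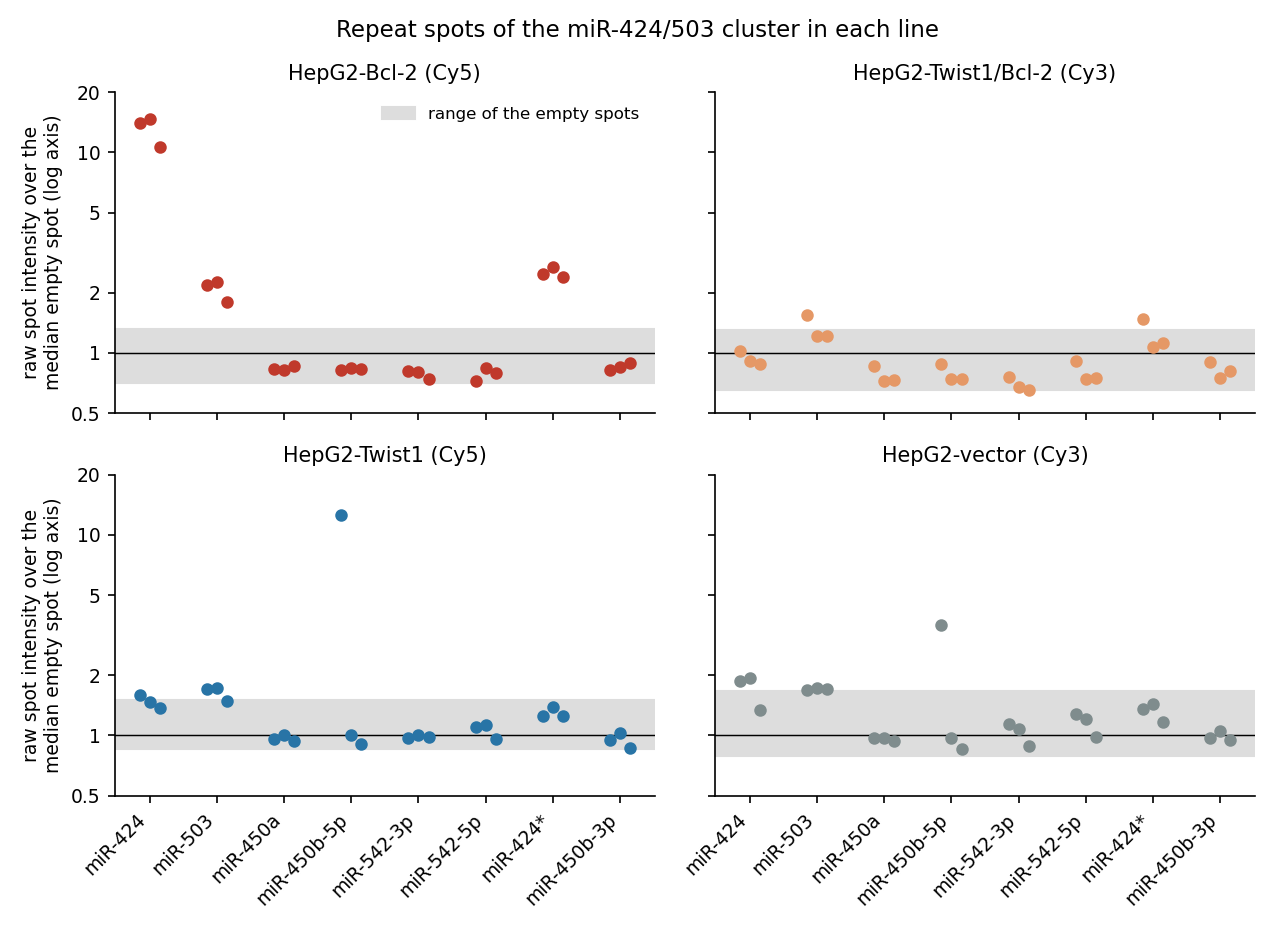
Raw intensity of each repeat spot over the median empty spot of its channel, on a log axis, for the 6 members and the other arms miR-424* and miR-450b-3p, with 1 panel per line and the range of the 40 empty spots in grey. The 3 spots of miR-424 stood between 10.7 and 14.7 times the median empty spot in HepG2-Bcl-2 and between 0.88 and 1.94 times in the other lines, and a single spot of miR-450b-5p was bright in both lines of array 1.

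After normalization miR-424 stood at 877 ± 168 in HepG2-Bcl-2, 15.5 ± 8.77 in HepG2-Twist1/Bcl-2, 69.5 ± 12.6 in HepG2-Twist1 and 79.7 ± 28.7 in HepG2-vector. In order of level HepG2-Bcl-2 came first and HepG2-Twist1 and HepG2-vector followed, with spots that overlapped (56.1 to 80.8 in HepG2-Twist1 and 49.2 to 102 in HepG2-vector), and last came HepG2-Twist1/Bcl-2, which did not reach 32. It ranked 72 of 1212 from the brightest in HepG2-Bcl-2, 1082 in the HepG2-Twist1/Bcl-2 sample, 182 in HepG2-Twist1 and 166 in HepG2-vector.

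Within array 2, the log2 ratio of miR-424 in HepG2-Bcl-2 over HepG2-Twist1/Bcl-2 was 3.74, 4.05 and 3.68 at the 3 spots, with a mean of 3.82 ± 0.20. With loess within the array alone, the intensities were 939 in HepG2-Bcl-2 and 19.9 in HepG2-Twist1/Bcl-2. The first was 29.3 times the minimum of 32, a threshold from the study's methods and not a detection limit measured here. In HepG2-Twist1/Bcl-2 miR-424 had 0 of 3 spots above the brightest empty spot, so no fold between the lines is given. This log2 ratio lay between 2.79 and 4.68 under the alternatives. Across the arrays, the log2 ratio was 2.84 ± 0.06 over HepG2-vector and 2.96 ± 0.15 over HepG2-Twist1. In these lines miR-424 had 2 of 3 and 1 of 3 spots above the brightest empty spot, so no fold is given, and the ratios lay between 2.12 and 3.35 over HepG2-vector and between 2.79 and 3.90 over HepG2-Twist1 under the alternatives. These 3 comparisons share the HepG2-Bcl-2 sample, so they are not independent of each other. The log2 ratios hold an offset of 50, which draws the ratios of dim miRNAs toward 0.

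Across the arrays, raw spots in the same dye were set beside the control spots. In Cy5, HepG2-Bcl-2 over HepG2-Twist1, the raw log2 ratio of the miR-424 spots had a median of 3.56 and lay between 3.37 and 3.74. The 268 calibration spots had a median of 0.42 in the same ratio, the 40 empty spots one of 0.39 and all 3636 miRNA spots one of 0.32. In Cy3, HepG2-Twist1/Bcl-2 over HepG2-vector, the miR-424 spots had a median of -0.34, where the calibration spots had 0.36 and all miRNA spots 0.34. In Cy5 the miR-424 spots thus stood above the median of the control spots and above all empty spots, the highest of which had 0.67, though single calibration spots reached 4.24. In Cy3 they ran the other way from the median of the control spots, within the range of the calibration spots.

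Between the lines without Bcl-2, miR-424 was not called. The log2 ratio in HepG2-Twist1 over HepG2-vector was -0.14, -0.31 and 0.10 at the spots, with a mean of -0.12 ± 0.20, within the spread of the spots, though at -1.06 and called without normalization and at 0.12 with cyclic loess. Turned to the same direction, line with Twist1 over line without, the ratio of miR-424 was -3.82 on array 2 (HepG2-Twist1/Bcl-2 over HepG2-Bcl-2). The difference between these ratios was not tested, and the line with Twist1 carried Cy5 on array 1 and Cy3 on array 2. The study reports miR-424 as statistically not significant in its microarray analysis of Twist1-transfected cells. The ratios here set 1 sample against 1 and are not that test.

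The other arm of the same hairpin, miR-424*, went the same way with a smaller ratio. Its raw spots read 128, 139 and 124 in HepG2-Bcl-2, all above the brightest empty spot, against 235, 170 and 178 in HepG2-Twist1/Bcl-2. On array 1 they read 48.8, 54.1 and 49.0 in HepG2-Twist1 and 150, 158 and 129 in HepG2-vector. Normalized, it stood at 128 ± 10.8 in HepG2-Bcl-2, 39.98 ± 20.03 in HepG2-Twist1/Bcl-2, 50.01 ± 7.33 in HepG2-Twist1 and 47.3 ± 11.2 in HepG2-vector. The spots of HepG2-Bcl-2 (121 to 141) did not overlap those of any other line, and the other lines overlapped among themselves. The log2 ratio in HepG2-Bcl-2 was 0.99 ± 0.36 over HepG2-Twist1/Bcl-2, 0.87 ± 0.12 over HepG2-vector and 0.83 ± 0.02 over HepG2-Twist1. With the offset of 50, each lay just under the size of a call. The arm was called in 5 of 12, 4 of 13 and 4 of 13 alternative settings of these comparisons. With an offset of 16 the ratios were 1.31, 1.25 and 1.19 in the same order, and all were called. Without normalization the ratio was 0.03 over HepG2-Twist1/Bcl-2 and 0.31 over HepG2-vector. Its ratio in HepG2-Twist1 over HepG2-vector was 0.04 ± 0.10.

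miR-503, whose hairpin starts 313 bases after that of MIR424, had smaller ratios in HepG2-Bcl-2 than miR-424. Its raw spots read 113, 117 and 93.2 in HepG2-Bcl-2, all above the brightest empty spot. They read 247, 193 and 193 in HepG2-Twist1/Bcl-2, with 1 of 3 above it. On array 1 they read 66.9, 67.6 and 58.4 in HepG2-Twist1, with 2 of 3 above it, and 187, 191 and 188 in HepG2-vector, with 3 of 3 above it. In HepG2-vector, where miR-424 had 2 of 3 spots above the brightest empty spot, miR-503 thus had all of them. Their means there were alike, at 1.72 times the median empty spot for miR-424 and 1.71 times for miR-503. Normalized, miR-503 stood at 101 ± 15.1 in HepG2-Bcl-2, 51.7 ± 17.4 in HepG2-Twist1/Bcl-2, 82.4 ± 10.01 in HepG2-Twist1 and 80.6 ± 1.91 in HepG2-vector. The spots of HepG2-Bcl-2 (84.5 to 114) overlapped those of HepG2-Twist1 (71.1 to 89.5), and these in turn overlapped both those of HepG2-vector (78.8 to 82.6) and those of HepG2-Twist1/Bcl-2 (42.0 to 72.8).

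The log2 ratio of miR-503 in HepG2-Bcl-2 was 0.57 ± 0.25 over HepG2-Twist1/Bcl-2, 0.21 ± 0.14 over HepG2-vector and 0.19 ± 0.04 over HepG2-Twist1, and it was called in none of them. In the authors' values (84.5 against 35.3), where ratios hold no offset and calls cannot use the spots, it stood at 1.26 over HepG2-Twist1/Bcl-2 and was called there. Its sign rested on the scaling for 2 of these, at -0.39 over HepG2-Twist1/Bcl-2 and -0.39 over HepG2-vector without normalization, and at -0.21 over HepG2-vector with centring in place of loess. In HepG2-Twist1 over HepG2-vector the ratio was 0.02 ± 0.11. The gap between the neighbours was also taken spot by spot. The log2 ratio of miR-424 exceeded that of miR-503 by 3.25 ± 0.13 in the comparison with HepG2-Twist1/Bcl-2, by 2.63 ± 0.20 in that with HepG2-vector and by 2.77 ± 0.11 in that with HepG2-Twist1, and by at least 2.51 under every alternative setting tried. It exceeded that of miR-424*, the other arm of its own hairpin, by 2.84 ± 0.27, 1.96 ± 0.07 and 2.12 ± 0.17 in the same order of comparisons.

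**Figure D2:**
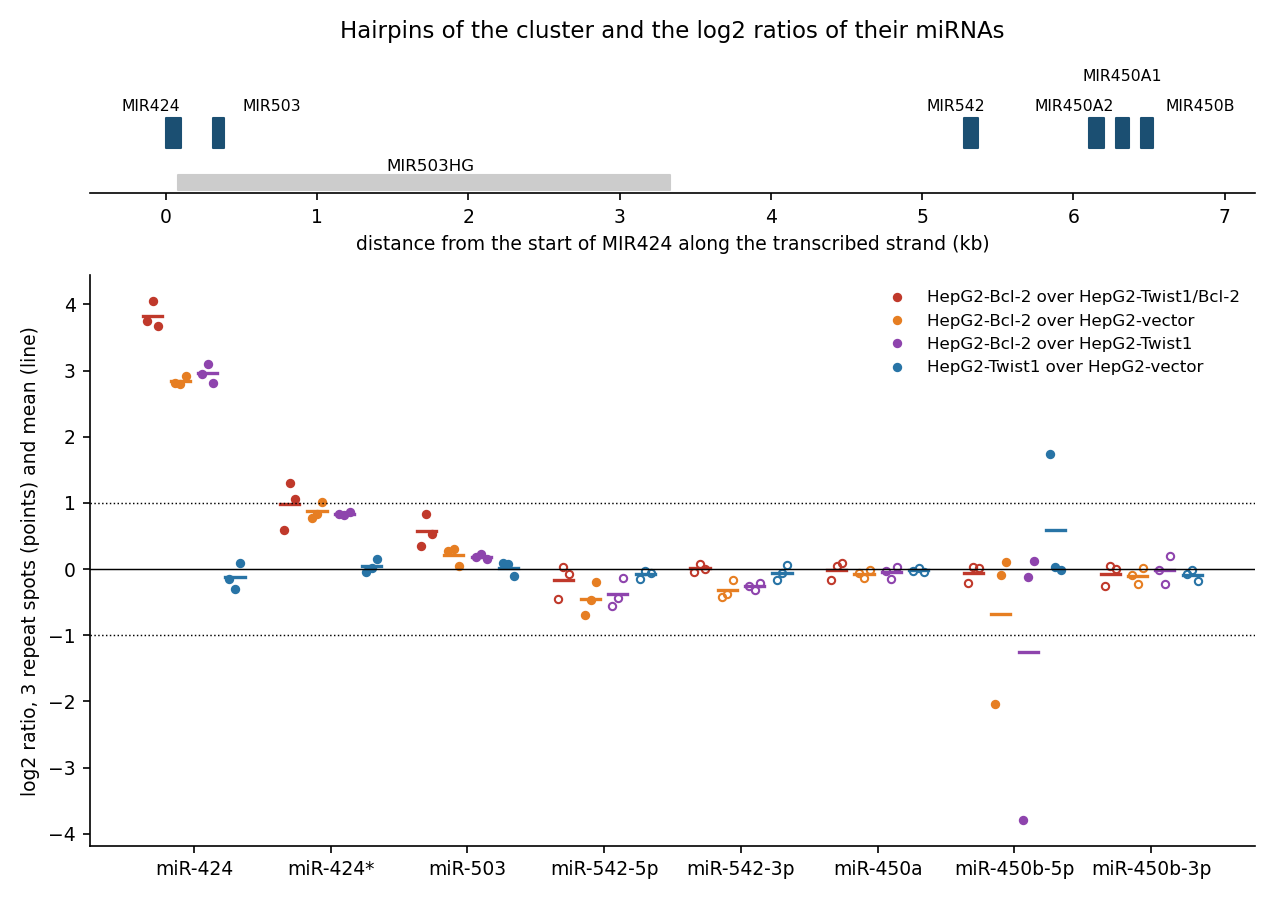
Above, the hairpins of the cluster and MIR503HG at their distance in kb from the start of MIR424. Below, the log2 ratio of each miRNA at its 3 repeat spots (points, open where neither line reached 32) with their mean (line) in 4 comparisons, and dotted lines at the size of a call. miR-424 stood at 3.82, 2.84 and 2.96 in HepG2-Bcl-2 over the other lines and at -0.12 in HepG2-Twist1 over HepG2-vector, and the wide scatter of miR-450b-5p came from 1 spot.

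The members from the far end of the cluster, more than 5 kb along the strand, were at the level of the empty spots in HepG2-Bcl-2. There the raw spots of miR-542-3p, studied as a miRNA that lowers survivin, read 42.4, 41.8 and 38.6, and those of miR-542-5p 37.6, 43.5 and 41.0. The spots of miR-450a read 43.4, 42.9 and 44.7 and those of miR-450b-5p 42.7, 43.4 and 43.3. All 12 spots lay below the median empty spot of 51.9 in that line. In the other lines 0 spots of miR-450a, miR-542-3p and miR-542-5p stood above the brightest empty spot.

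Of these, miR-450a had a normalized intensity between 14.9 and 18.2 and miR-542-3p one between 9.43 and 24.2 over the 4 lines. miR-542-5p stood at 11.6 ± 2.65 in HepG2-Bcl-2, 19.1 ± 10.01 in HepG2-Twist1/Bcl-2, 29.97 ± 11.04 in HepG2-Twist1 and 34.3 ± 13.2 in HepG2-vector. It passed 32 in HepG2-vector only after scaling between the arrays, and its log2 ratio in HepG2-Bcl-2 over HepG2-vector was -0.45 ± 0.25, not called. miR-450b-3p, the other arm of the miR-450b hairpin, stood between 16.3 and 21.0. A level below 32 is a bound at this depth of signal and not an absence.

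miR-450b-5p was split on array 1. In HepG2-Twist1 its raw spots read 491, 39.1 and 35.5, and in HepG2-vector 391, 107 and 94.6, so in both channels the first spot was bright and the others were at the level of the empty spots. The 8 spots around the bright one read between 35.8 and 38.5 in HepG2-Twist1 and between 104 and 122 in HepG2-vector. On array 2 its spots read 42.7 to 43.4 in HepG2-Bcl-2 and 118 to 139 in HepG2-Twist1/Bcl-2. The mean over the spots gave log2 ratios of -0.06 ± 0.14 in HepG2-Bcl-2 over HepG2-Twist1/Bcl-2, -0.68 ± 1.19 over HepG2-vector, -1.26 ± 2.19 over HepG2-Twist1 and 0.58 ± 1.00 in HepG2-Twist1 over HepG2-vector, and none was called. Without the first spot, miR-450b-5p stood between 13.1 and 14.2 in all 4 lines, and the ratio of HepG2-Twist1 over HepG2-vector was 0.0058.

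Counted over the cluster, 1 of 6 members was called higher in HepG2-Bcl-2 in each comparison, miR-424 each time. Over HepG2-Twist1/Bcl-2, 2 members were measured, and 29 of all 592 measured miRNAs (4.90%) were called higher and 21 (3.55%) lower. With centring in place of loess these counts were 19 higher and 38 lower, and without normalization 10 and 107. Where only miRNAs above the brightest empty spot counted as measured, 29 of 216 were called higher and 21 lower. With a minimum of 100, 28 of 183 were called higher and 21 lower. The share called thus depends on how many dim miRNAs count as measured. Over HepG2-vector 4 members were measured, and 13 of 485 miRNAs (2.68%) were called higher and 11 (2.27%) lower, or 8 and 37 with centring, 6 and 81 without normalization, 20 and 29 in the authors' values and 20 and 8 with no scaling between the arrays. Over HepG2-Twist1 3 members were measured, and 19 of 490 miRNAs (3.88%) were called higher and 7 (1.43%) lower, or 30 and 2 without normalization, 25 and 15 with an offset of 16, 19 and 11 with the empty spots subtracted, and 24 and 27 in the authors' values. In HepG2-Twist1 over HepG2-vector 3 members were measured and 0 called, where 0 of 304 miRNAs (0%) were called higher and 5 (1.64%) lower. Above the brightest empty spot the numbers called were the same, out of fewer measured miRNAs. These were 203 over HepG2-vector, 205 over HepG2-Twist1 and 168 in HepG2-Twist1 over HepG2-vector. The median log2 ratio over all 6 members was -0.0011, -0.20, -0.16 and -0.04 in the 4 comparisons in this order, and over all 1212 miRNAs it was -0.01, 0.04, 0.05 and -0.0032.

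**Figure D3:**
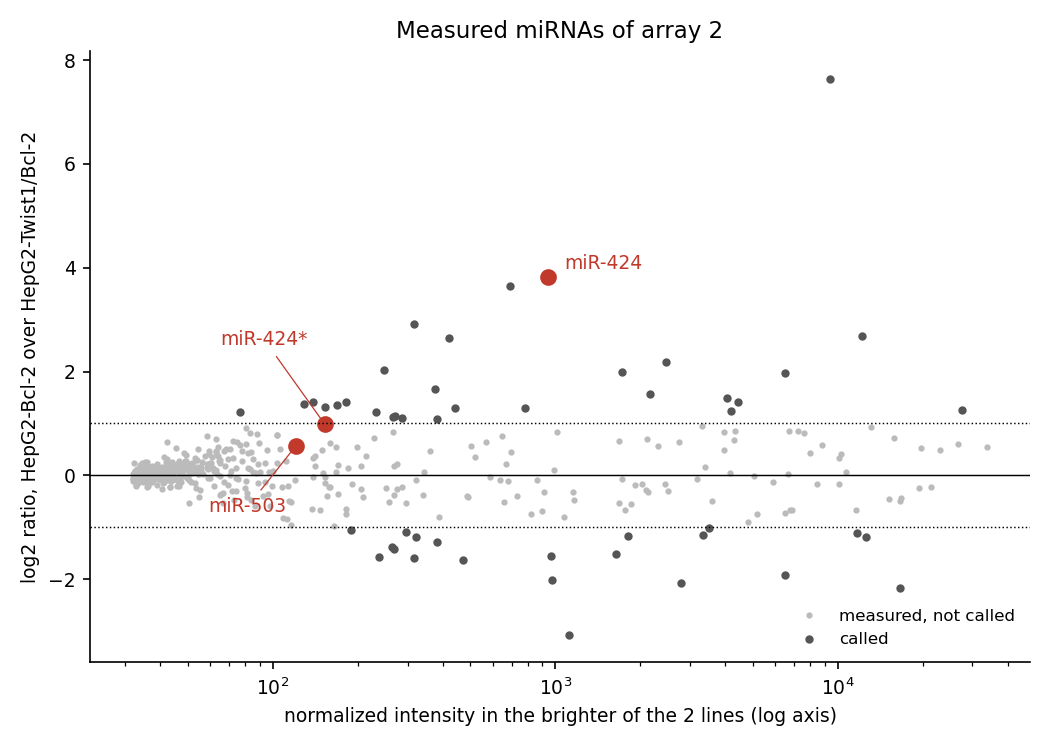
Log2 ratio in HepG2-Bcl-2 over HepG2-Twist1/Bcl-2 against the normalized intensity in the brighter of the 2 lines (log axis) for the 592 miRNAs measured on array 2, with called ones dark and dotted lines at the size of a call. miR-424 stood at 3.82 against a level below 32 in HepG2-Twist1/Bcl-2, while miR-424*, at 0.99, and miR-503, at 0.57, lay under the upper dotted line.

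The miRNAs that share the seed of miR-424 had smaller ratios and were not called. miR-16, a founding member of the group, stood at 6573 in HepG2-Bcl-2, 3604 in HepG2-Twist1/Bcl-2, 5315 in HepG2-Twist1 and 5230 in HepG2-vector. miR-15b, which is made beside a second copy of miR-16 on chromosome 3, stood at 4113, 3995, 3944 and 3779 in the same order of lines. Both were thus bright in HepG2-Twist1/Bcl-2, where the miR-424 probe read as the empty spots did. miR-195, from chromosome 17, stood at 241, 113, 186 and 161, and miR-15a, from chromosome 13, at 144, 83.1, 96.1 and 144. miR-497, made beside miR-195, stayed below 32 in all lines, between 18.5 and 28.1.

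In HepG2-Bcl-2 over HepG2-Twist1/Bcl-2 the log2 ratio was 0.86 ± 0.10 for miR-16, 0.84 ± 0.04 for miR-195, 0.54 ± 0.10 for miR-15a and 0.04 ± 0.16 for miR-15b. Over HepG2-vector miR-195 had the highest ratio of these, 0.46 ± 0.09, and over HepG2-Twist1 miR-15a did, 0.41 ± 0.16. Of the 5 relatives, 0 were called in any of the 4 comparisons, where between 0% and 4.90% of all measured miRNAs were called in a given direction. Their median ratio in HepG2-Bcl-2 was 0.54 over HepG2-Twist1/Bcl-2, 0.22 over HepG2-vector and 0.30 over HepG2-Twist1, where all measured miRNAs had medians of 0.04, 0.0099 and 0.04. The first and second of these list medians turned to -0.45 and -0.59 without normalization, and the second to -0.15 with centring. Under the alternatives, miR-195 was called higher over HepG2-Twist1/Bcl-2 in the authors' values, and miR-15a and miR-195 were called lower in HepG2-Twist1 over HepG2-vector without normalization.

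Another cluster lies 369.9 kb further along the same strand of the X chromosome, with miR-106a, miR-18b, miR-20b, miR-19b, miR-92a and miR-363. It is a paralogue of the growth-promoting miR-17/92 cluster. miR-19b and miR-92a are also made from that one, so their probes do not read this cluster alone. It has 12 probes on the arrays, star forms included. In HepG2-Bcl-2 over HepG2-Twist1/Bcl-2, 4 of 6 measured ones were called higher, where 4.90% of all measured miRNAs were. Among those above the brightest empty spot, 4 of 5 were called higher, where 29 of all 216 such miRNAs were. The log2 ratios were 2.00 ± 0.34 for miR-20b, 1.497 ± 0.18 for miR-106a, 1.31 ± 0.21 for miR-18b and 1.13 ± 0.15 for miR-19b, though 2 were called with centring and 1 without normalization. The shift was not particular to this cluster. In the same comparison miR-20a, miR-18a, miR-17 and miR-106b, which are not made from it, were called higher, at 1.97, 1.67, 1.40 and 1.56. miR-93, also made elsewhere, stood at -0.29 and was not called. Over HepG2-vector 0 of 7 measured were called, where 2.68% of all measured miRNAs were called higher and 2.27% lower. There miR-106a stood at 3835 in HepG2-Bcl-2 and 3995 in HepG2-vector and miR-20b at 1584 and 1220. miR-19b stood at 237 in HepG2-Bcl-2 and 508 in HepG2-vector, a log2 ratio of -0.96 ± 0.28, and was called lower with centring, without normalization (as was miR-18b), with the empty spots subtracted, without the second spot, with the median of the spots and in the authors' values. Over HepG2-Twist1 1 of 7 measured was called, miR-20b, at 1.03 ± 0.11, where 3.88% of all measured miRNAs were called higher. It was not called with cyclic loess, without the third spot, with the median of the spots or in the authors' values. In HepG2-Twist1 over HepG2-vector 1 of 5 measured was called lower, miR-19b, at -1.32 ± 0.19, where 1.64% of all measured miRNAs were.

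Of 96 other miRNAs whose genes all lie on chromosome X, 45 were measured in HepG2-Bcl-2 over HepG2-Twist1/Bcl-2. Of these, 3 were called higher and 1 lower, where 4.90% of all measured miRNAs were called higher and 3.55% lower. The higher ones were miR-106a, miR-20b and miR-18b of the cluster just named, and the lower one was miR-98, a let-7 family member, at -2.07 ± 0.10. Over HepG2-vector 0 of 37 were called, where 2.68% of all measured miRNAs were called higher and 2.27% lower. Over HepG2-Twist1 2 of 38 were called higher, where 3.88% of all measured miRNAs were. They were miR-20b and, at 1.07 ± 0.17, miR-221, a growth-linked miRNA raised in many tumours.

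miR-424 was one of 9 miRNAs, of 410 measured in all 3 comparisons (2.20%), that were called higher in HepG2-Bcl-2 over each of the other lines, and 0 (0%) were called lower over each. The others were miR-146a, miR-200b, miR-146b-5p, miR-155, miR-29a, miR-29c, miR-4258 and miR-1181. Likeness of pattern was measured as the distance between the mean-centred log2 intensities over the 4 lines, among 182 miRNAs outside the members that reached 100 in at least 1 line. The nearest to miR-424 were miR-200b at a distance of 0.58, miR-146b-5p at 0.70, miR-29a at 1.21, miR-155 at 1.27 and miR-29c at 1.36, where the median distance was 3.00.

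miR-200b, known for keeping cells epithelial by lowering ZEB1 and ZEB2, stood at 624 in HepG2-Bcl-2 and below 32 in the other lines. miR-155 and miR-146b-5p, best known from immune cells, stood at 211 and 276 in HepG2-Bcl-2 and also below 32 in the others. miR-29a, known for lowering collagens, stood at 11796 in HepG2-Bcl-2, 1801 in HepG2-Twist1/Bcl-2, 4414 in HepG2-Twist1 and 4227 in HepG2-vector. The nearest to miR-503 were miR-23b at 0.13, miR-30e* at 0.19, and miR-30d, miR-16 and miR-24 at 0.21 each, where the median distance was 0.81. These distances rest on 4 samples and carry no test.

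**Figure D4:**
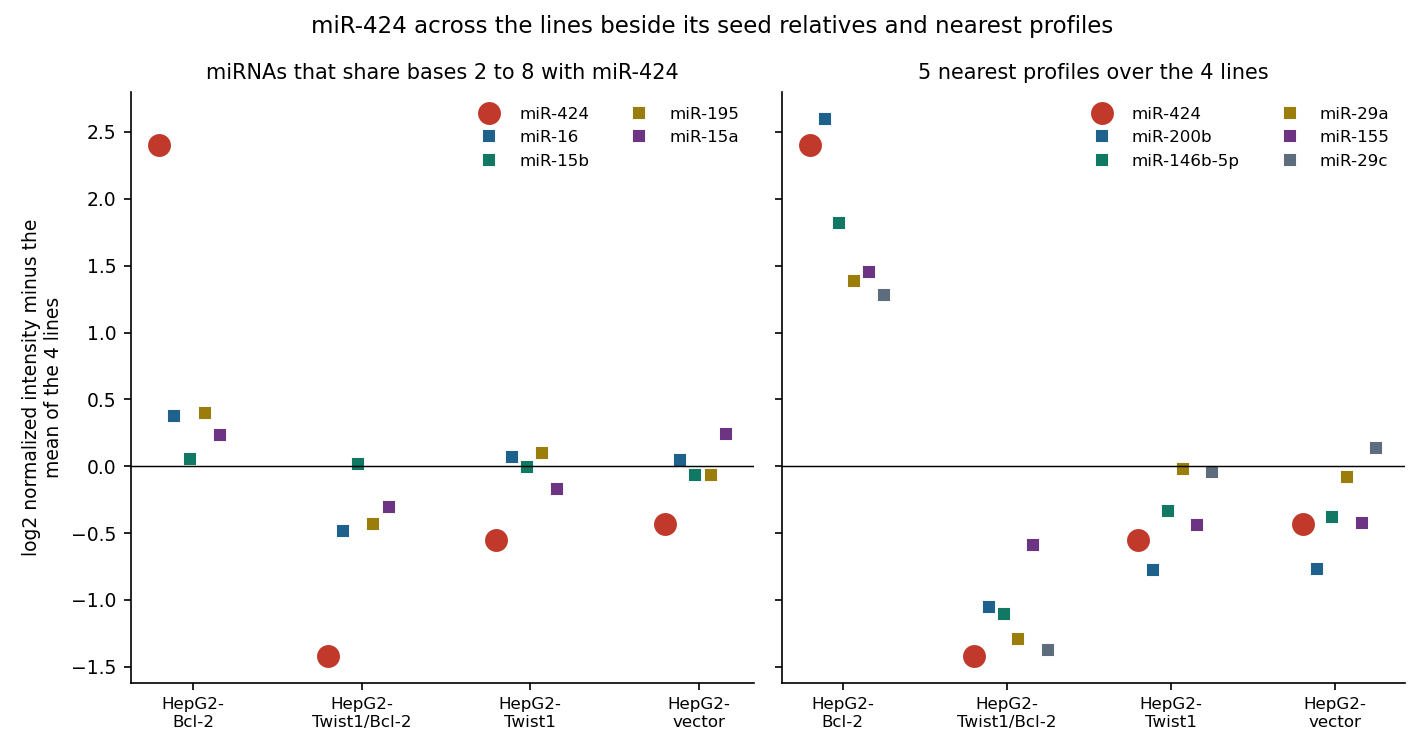
Log2 normalized intensity of each miRNA minus its own mean over the 4 lines, for miR-424 (circle) beside 4 miRNAs that share its bases 2 to 8 (left) and the 5 nearest profiles (right). miR-424 stood at 2.40 in HepG2-Bcl-2 and at -1.42, -0.55 and -0.43 in HepG2-Twist1/Bcl-2, HepG2-Twist1 and HepG2-vector, while the seed relatives stayed closer to 0 and miR-200b, at 2.60 in HepG2-Bcl-2, lay nearest.

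Markers of other cells were looked at beside these levels. The hepatocyte miRNA miR-122 was below 32 in all 4 lines, between 19.8 and 26.5, while 4 of 5 hepatocyte markers reached 32 in at least 1 line. The summed level of the 5 was 641 in HepG2-Bcl-2, 329 in HepG2-Twist1/Bcl-2, 666 in HepG2-Twist1 and 684 in HepG2-vector. The largest part was miR-192, at 414, 140, 417 and 406 in the same order of lines. The others did not all follow it, with miR-194 at 130, 125, 126 and 129 and miR-101 at 20.4, 17, 44.6 and 60.35. Of 5 blood markers miR-223 alone reached 32, at 35.1 in HepG2-Bcl-2 and 26.6, 34.0 and 32.2 in the others, and miR-142-3p and miR-451 did not in any line. The endothelial miR-126 stood at 262 in HepG2-Bcl-2, 94.4 in HepG2-Twist1/Bcl-2, 137 in HepG2-Twist1 and 162 in HepG2-vector. The 5 mesenchymal markers summed to 140 in HepG2-Bcl-2 and to between 108 and 111 in the others, the 4 muscle markers to 187 against 77.2 to 113, and the 2 neuronal ones to 96.7 against 71.8 to 84.5. Of the mesenchymal markers 2 reached 32 in HepG2-Bcl-2 and 0 in the others. One of them, miR-214, stood at 35.2 in HepG2-Bcl-2 and only just missed 32 in HepG2-Twist1/Bcl-2. The mesenchymal markers miR-199a-3p and miR-199a-5p, below 32 in every line, were lower in HepG2-Bcl-2 than in HepG2-Twist1 and HepG2-vector. Of the muscle markers 3 reached it in HepG2-Bcl-2, 2 in HepG2-Twist1 and 0 in the others, and 1 neuronal marker did in each line. The sums thus include levels below 32, which are bounds. The part of these cell types in the miR-424 level was not tested.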

How the data were processed

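Total RNA of the 4 lines, 1 sample each, was labelled and hybridised by a service provider (LC Sciences). The deposited scanner tables hold the intensity of every spot in both channels of 2 arrays, with 1212 miRNAs at 3 spots and 332 control spots, and no background column. The authors also deposited a table of normalized intensity values, made by cyclic LOWESS per their methods, which was used as an alternative. Its values are linear and not centred.

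Background was corrected on the spot intensities with normexp in limma (offset 50), and each array was scaled by loess (span 0.3, 4 iterations) with control spots at weight 0. Levels and ratios across arrays were then quantile-normalized on the average log intensity. R 4.3.3, limma 3.58.1, Python 3.11.15, numpy 2.4.6, pandas 2.3.3 and matplotlib 3.10.9 were used. No test between lines was made. The scripts for normalization and calls were run on simulated arrays with known changes. Sequences and positions came from RefSeq (GRCh38.p14), and 1061 of 1212 array targets matched a mature miRNA there.

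The members and the lists were chosen with earlier results of these data known. Named miRNAs were all members, the other arms of their hairpins, up to 6 per list that reached 100 in at least 1 line (brightest first), and the 5 nearest in pattern to miR-424 and to miR-503. miR-497, miR-20a, miR-18a, miR-17, miR-106b, miR-93 and the miRNAs called over every other line were named after their values were seen.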

Additional observations from a re-analysis of the deposited data

How the results depend on the processing

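miR-424 was called higher in HepG2-Bcl-2 over each other line in every alternative tried, 12 within array 2 and 13 across arrays, with log2 ratios of 2.79 to 4.68 over HepG2-Twist1/Bcl-2, 2.12 to 3.35 over HepG2-vector and 2.79 to 3.90 over HepG2-Twist1. The number of members called was 2 in place of 1 with the authors' values in each of these (with miR-503 over HepG2-Twist1/Bcl-2, and with miR-450b-5p lower in the other 2), and 2 over HepG2-vector without normalization, again with miR-450b-5p. In HepG2-Twist1 over HepG2-vector it was 1 in place of 0 without normalization (miR-424, at -1.06, where the median of all measured miRNAs was -0.63) and 1 with the authors' values (miR-450b-5p). Leaving out 1 repeat spot gave 1 member over HepG2-Twist1/Bcl-2, 1 to 2 over HepG2-vector and over HepG2-Twist1, and 0 in HepG2-Twist1 over HepG2-vector. The 2 came without the third spot, which left the bright spot of miR-450b-5p with 1 other. No member called in the main setting changed sign.

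Without normalization the median of all measured miRNAs moved to -0.59 over HepG2-Twist1/Bcl-2 and -0.51 over HepG2-vector, and relative to it miR-503 stood at 0.20 and 0.12. Relative to the median with centring, -0.28 over HepG2-vector, it stood at 0.08. Over HepG2-Twist1 the median moved to 0.38 without normalization. Of all measured miRNAs, the calls higher and lower were 29 and 21 over HepG2-Twist1/Bcl-2, against 10 and 107 without normalization. Over HepG2-vector they were 13 and 11, against 23 and 16 with an offset of 16, 20 and 29 with the authors' values, 8 and 37 with centring and 6 and 81 without normalization. Over HepG2-Twist1 they were 19 and 7, against 25 and 15 with an offset of 16 and 24 and 27 with the authors' values. In HepG2-Twist1 over HepG2-vector they were 0 and 5, against 0 and 23 with centring, 0 and 131 without normalization and 3 and 6 with the authors' values. The methods' t-test sets a control group against a test group, each with more than 1 sample, and it was not run. Lines with Twist1 against lines without it would form such groups, but this grouping was not tested here. No paired analysis was possible because each comparison here sets 1 sample against 1. A Twist1 contrast paired over the arrays was not fitted. Dim signal limits miR-450a, miR-542-3p and miR-542-5p to bounds.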
